A study of Mus musculus with 14 samples.

Results

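The 5 arrays of untreated B16-F10 cells, out of 14 arrays in all, fell into sets of unequal size. Biological replicates 1 and 3 formed a set of 2, and biological replicates 2, 4 and 5 formed a set of 3. The division was chosen by the measured signals of these same arrays, so every difference between the sets is given as a description, with no test. B16-F10 is a melanoma cell line from the mouse strain C57BL/6J, grown in RPMI medium with fetal bovine serum. RNA of each culture was hybridized to an Affymetrix Mouse Expression Array 430A, where the RNA of a gene is read by several short probes, together called a probeset. Values are log2 signals from RMA, which removes background, brings all arrays to the same distribution and merges the probes of a probeset, so that a difference of 1 is 2-fold. The remaining 9 arrays came from treated cells of the same line, 3 of each kind. Heat-shocked cells were held at 42.5°C for 1 h and recovered for 30 min at 37°C. Lipofectamine cells received the transfection lipid Lipofectamine 2000 without plasmid for 3 h in Opti-MEM, followed by 30 min in RPMI with serum. Benzyl alcohol cells received 40 mM of the membrane fluidizer for 1 h, with a recovery of 3 h in one description and 30 min in another. The replicates are labelled biological, but no source used here says on which day or in which flask each culture was grown, and differences between arrays may therefore also be technical.

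Cells that run short of amino acids, accumulate unfolded proteins in the endoplasmic reticulum (ER) or lack heme switch on the integrated stress response. The kinases of this response phosphorylate the initiation factor eIF2, translation slows, and the transcription factor ATF4 is made, which with its partners CHOP (Ddit3), ATF3 and C/EBP factors turns on genes of amino acid supply, tRNA charging and feedback inhibition. Unfolded proteins also activate ATF6 and XBP1, which raise the chaperones of the ER, and oxidants or electrophiles activate NRF2, which raises enzymes of glutathione synthesis and detoxification. Dividing cells in contrast express genes of DNA replication in S phase and of chromosome segregation in mitosis, under E2F factors and the DREAM and MuvB complexes.

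Across the 22626 probesets left after the Affymetrix control probesets were set aside, arrays 1 and 3 and arrays 2, 4 and 5 did not overlap at 4015 probesets that were higher in arrays 1 and 3 (17.7%) and at 4749 that were lower (21.0%). The differences were unequal in size between the directions. At least 2-fold higher were 315 probesets of 222 genes (1.39%), and at least 2-fold lower were 125 probesets of 91 genes (0.552%). Differences of 2 or more on the log2 scale were seen at 51 probesets, all of them higher in arrays 1 and 3. The differences of set means ran from -1.91 to 5.13, with a median of -0.04 over all probesets.

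**Figure D1:**
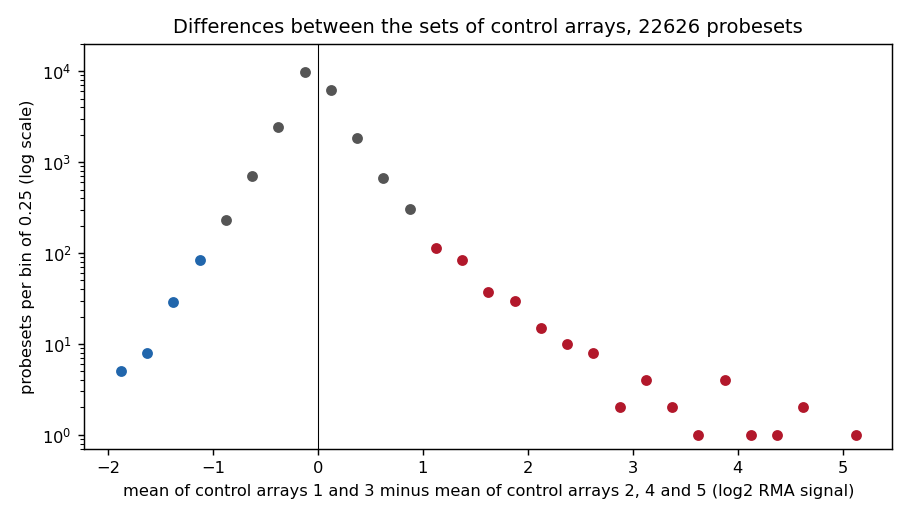
Number of probesets (log scale) by the difference between the mean of control arrays 1 and 3 and the mean of control arrays 2, 4 and 5, in log2 units, each point standing for a bin 0.25 wide. Red points are bins of at least 2-fold higher and blue points of at least 2-fold lower signal in arrays 1 and 3. The right side reaches 5.13 and the left side ends at -1.91.

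Single pairs of arrays are described from the same signals that gave the division. Arrays 4 and 5 differed at least 2-fold at 7 probesets, arrays 2 and 4 at 8, arrays 2 and 5 at 45, and arrays 1 and 3 at 75. Pairs taken from different sets differed at 535 to 676 probesets. Pearson's r across probesets was 0.992 between arrays 1 and 3, 0.9925 to 0.9955 within arrays 2, 4 and 5, and 0.9793 to 0.982 between the sets, where probesets are not independent replicates.

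The 15 genes with the widest gaps between the sets were all higher in arrays 1 and 3. Nupr1, a small chromatin-associated stress protein, had signals of 10.53 in array 1 and 10.57 in array 3 against 5.34, 5.47 and 5.47 in arrays 2, 4 and 5, a difference of 5.13 (34.9-fold). Its other probeset differed by 3.29. Trib3, a pseudokinase that inhibits ATF4 and AKT, stood at 11.49 and 11.67 against 6.92, 7.02 and 7.01. Both genes were named for their wide gaps, so the distance between the sets follows from the choice. In Trib3 the nearest arrays of the sets were 4.47 log2 units apart.

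Genes induced through ATF4 and CHOP had the largest median difference of the lists. Of 30 measured genes 25 were higher in arrays 1 and 3 without overlap and 2 were lower, with a median difference of 1.5, against 19.5% higher, 20.9% lower and a median of -0.04 over all 12393 genes. The transcription factors of the response were among them. Atf4 itself had signals of 9.52 and 9.65 against 7.45, 7.48 and 7.85 in the most divided of its 3 probesets, all of which separated the sets, and differed by 0.23 in the least divided. Ddit3, which encodes CHOP, reached 12.28 and 12.19 against 8.27, 8.43 and 8.13, a difference of 3.96. Atf3 (4.36) and Cebpb (3.05) went the same way, as did Atf5 (2.64), Cebpg (1.52) and Jdp2 (1.46). Both arrays of the first set were therefore high for the factors and for their targets.

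The feedback genes of the response were high as well. Ppp1r15a, the phosphatase subunit that removes the phosphate from eIF2, had 11.81 and 11.74 against 7.76, 7.78 and 7.98. Chac1, which degrades glutathione, had 10.61 and 10.80 against 6.82, 6.80 and 6.81. Ddit4, an inhibitor of mTORC1, differed by 3.75, Sesn2, another such inhibitor, by 1.90 and Eif4ebp1, a repressor of cap-dependent translation, by 1.47. Exceptions on the list were Pmaip1 and Ndrg1, lower by 0.23 and 0.20 (differences of -0.23 and -0.20), and Stc2, Tnfrsf10b and Klhl24, whose arrays overlapped.

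The element bound by ATF4 with C/EBP factors, TGATGNAA, was looked for on both strands of the RefSeq promoter windows of build GRCm38.p6, which hold 250 bases before and 50 after a gene's start. It was present in 39.1% of the 23 windows found for this list, in 10.8% of those of the genes at least 2-fold higher in arrays 1 and 3 and in 1.43% of those at least 2-fold lower, against 3.13% of the windows of all measured genes and 3.97% of all windows. Known ATF4 targets went into the list, so its share is partly built in. The ER, NRF2 and mitosis lists below were also written by hand, so their shares may be partly built in as well. Members of the lists are among the genes at least 2-fold apart. The choice of windows to show, here and for the lists below, left out the genes of a chromosome, so a carrier there is not shown. The 4 list members with the widest gap between the sets, by the brightest probeset, that carry the element before their start are shown, from the strand of the gene, with the match in capitals (here all as the reverse complement):
Atf3, chr1:191183422-191183457, minus strand: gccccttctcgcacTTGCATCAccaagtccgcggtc
Chac1, chr2:119351035-119351070, plus strand: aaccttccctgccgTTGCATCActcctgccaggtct
Nupr1, chr7:126625559-126625594, minus strand: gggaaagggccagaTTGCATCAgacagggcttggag
Slc7a11, chr3:50443639-50443674, minus strand: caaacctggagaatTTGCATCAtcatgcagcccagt
A match of these letters is a description of the window and not a measured binding site.

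Genes that supply amino acids and charge tRNAs followed. Of 14 genes of serine, one-carbon, asparagine and proline synthesis and related steps, 11 were higher in arrays 1 and 3 and 1 was lower (median 0.70). Psph, the last enzyme of serine synthesis, had 10.66 and 10.60 against 8.41, 8.69 and 8.56. Asns, asparagine synthetase, had 10.94 and 10.99 against 9.07, 9.29 and 8.98, and Pck2, the mitochondrial PEP carboxykinase, differed by 2.02. The member that was lower was Mthfd1, a cytosolic folate enzyme, at -0.67. The list thus held high enzymes of amino acid synthesis beside a low enzyme used for nucleotides.

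Of 18 cytosolic aminoacyl-tRNA synthetases 13 were higher in arrays 1 and 3 and 0 lower (median 0.59). Aars had 11.72 and 11.97 against 10.49, 10.45 and 10.71, and Sars 11.23 and 11.51 against 9.60, 10.02 and 9.92. Farsb, Hars, Kars, Qars and Vars overlapped, at -0.31 to 0.08. The synthetases were thus unequally divided. The ATF4 element was present in 45.5% of the 11 windows found for the list, against 3.13% of the windows of all measured genes. This list too was written by hand, so its share may be partly built in. Whether the element goes with the higher synthetases was not tested. Among 14 amino acid transporters 7 were higher and 1 lower (median 0.25). Slc7a11, the cystine transporter, had 9.79 and 9.44 against 7.30, 6.51 and 5.94, and its partner Slc3a2 had 12.63 and 12.44 against 11.34, 11.44 and 11.53. Slc1a5, a glutamine carrier, differed by 1.22, and Slc6a6, which carries taurine, was lower, at -0.58.

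Chaperones and quality control genes of the ER were higher in 35 of 40 measured members and lower in 0, with a median of 0.79. Hspa5, the main chaperone BiP, had 12.45 and 12.13 against 10.78, 10.88 and 11.08. Herpud1, an adaptor of ER-associated degradation, had 10.75 and 10.74 against 7.95, 8.20 and 8.09. Creld2, a disulfide isomerase of the ER, had 11.79 and 11.86 against 9.65, 9.88 and 9.80, and the secreted chaperone-like protein Manf differed by 1.36. The sensors Eif2ak3 (PERK) and Atf6 differed by 0.70 and 0.79, and Xbp1 by 0.88, whereas Ern1 (IRE1) overlapped at -0.04. Parts of the translocon and signal sequence receptor were little divided, with Ssr1 at 0.16 and Sec61b at 0.20. The other members whose arrays overlapped were Dnajc10, Derl3, Uggt1 and Ssr3, at -0.11 to 0.28.

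The ER stress response element consists of CCAAT and CCACG with 9 bases between them. It occurred in 29.4% of the 34 windows found for the ER list, in 2.58% of those of the genes at least 2-fold higher and in 0.0% of those at least 2-fold lower, against 0.182% of the windows of all measured genes. The 4 members with the widest gaps among those that carry it before their start are shown from the strand of the gene, the whole element in capitals, sense in Dnajc3 and Pdia6 and reversed in Creld2 and Ero1b:
Creld2, chr15:88819506-88819552, plus strand: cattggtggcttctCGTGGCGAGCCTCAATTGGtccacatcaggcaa
Dnajc3, chr14:118937813-118937859, plus strand: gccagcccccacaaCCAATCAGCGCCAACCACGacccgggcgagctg
Pdia6, chr12:17266477-17266523, plus strand: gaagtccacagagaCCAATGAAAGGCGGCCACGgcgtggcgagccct
Ero1b, chr13:12565668-12565714, plus strand: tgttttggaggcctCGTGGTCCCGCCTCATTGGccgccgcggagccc
These 4 genes were higher in arrays 1 and 3 by 2.05, 1.15, 1.13 and 1.13.

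NRF2 target genes were higher in 24 of 30 members and lower in 1 (median 0.68). Hmox1, heme oxygenase, had 12.29 and 12.39 against 8.40, 8.78 and 8.53. Srxn1, sulfiredoxin, had 11.43 and 11.62 against 8.53, 8.55 and 8.82, with all 4 of its probesets separating the sets by 0.34 or more. Gclm, the regulatory subunit of glutamate-cysteine ligase, differed by 2.07, Blvrb, a biliverdin reductase, by 2.47, and the RNA of NRF2 itself, Nfe2l2, by 0.49. Txn1, Tkt, Cbr1, Maff and Ptgr1 overlapped, and Ugdh, which makes UDP-glucuronate, was the member that was lower (-0.34). The antioxidant response element TGACNNNGC was present in 40.0% of the 25 windows found for the list, against 16.3% of those of all measured genes. Among the genes at least 2-fold higher 23.2% of the windows held it, and among those at least 2-fold lower 17.1%. It is shown in capitals before the start of the 4 carriers with the widest gaps, reversed except in Nfe2l2:
Gclm, chr3:122245409-122245445, plus strand: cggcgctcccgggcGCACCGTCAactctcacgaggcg
Mafg, chr11:120633747-120633783, minus strand: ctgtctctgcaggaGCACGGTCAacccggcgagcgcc
Nfe2l2, chr2:75704881-75704913, minus strand: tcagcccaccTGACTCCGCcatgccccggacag
Txnrd1, chr10:82859100-82859136, plus strand: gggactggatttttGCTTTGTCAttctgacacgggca
Mafg, a small MAF partner of NRF2, and the thioredoxin reductase Txnrd1 differed by 1.07 and 0.48.

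**Figure D2:**
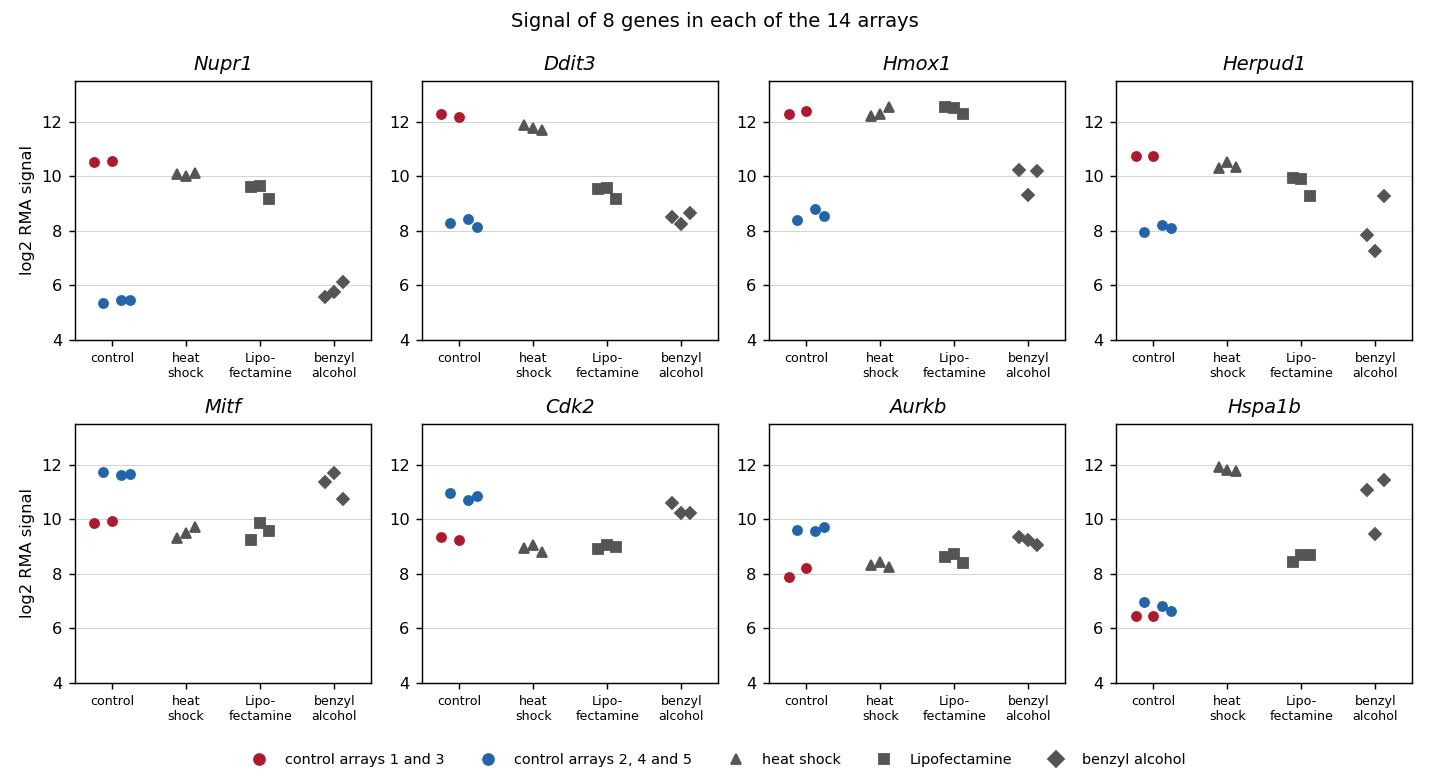
Log2 RMA signal of 8 genes in each of the 14 arrays, 1 point an array, with control arrays 1 and 3 in red, control arrays 2, 4 and 5 in blue and treated arrays in grey. Nupr1, Ddit3, Hmox1 and Herpud1 are higher and Mitf, Cdk2 and Aurkb lower in the red than in the blue arrays, while Hspa1b is at 6.45 to 6.97 in all 5 control arrays and at 8.44 or more in every treated array.

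Genes of cell division lay in the opposite direction with smaller differences. Of 52 genes of mitosis and chromosome segregation 42 were lower in arrays 1 and 3 and 0 higher (median -0.56), and of 44 DNA replication genes 36 were lower and 0 higher (median -0.47). Aurkb, the kinase of the chromosomal passenger complex, had 7.88 and 8.23 against 9.60, 9.59 and 9.71. Ccna2, cyclin A, had 10.43 and 10.16 against 11.36, 11.30 and 11.48, and Mki67, which encodes the proliferation marker Ki-67, had 9.18 and 9.45 against 10.09, 10.30 and 10.35. Cdk1 and Plk1 differed by -0.87 and -1.03. Aurkb, Ccna2, Cdk1 and Plk1 were named for their wide gaps, so that their arrays did not overlap follows from the choice. Mki67, given in any case, did not overlap either.

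Among replication genes Rrm1, the large subunit of ribonucleotide reductase, had 10.21 and 9.65 against 11.30, 11.35 and 11.53, and Cdc6, which loads the replicative helicase, had 7.45 and 7.70 against 8.75, 8.83 and 8.86. The helicase subunits Mcm2 to Mcm7 were lower (differences of -0.59 to -1.0). The 8 members that overlapped included Cdt1, Cdc45, Orc2 and Tyms. Of 25 G1 regulators 14 were lower and 3 higher (median -0.25). Cdk2 had 9.37 and 9.26 against 10.96, 10.73 and 10.87, and Ccnd1, cyclin D1, differed by -0.83. The CDK inhibitor Cdkn1a (p21) was higher, with 10.99 and 11.18 against 9.79, 9.70 and 9.61, and Cdkn1b (p27) and Ccnd2 differed by 0.54 and 0.31. Lower Cdk2 and cyclin D1 thus went with a higher p21, while the cyclin Ccnd2 was higher and 8 of the 25 members overlapped.

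The cell cycle homology region TTTGAA, bound by MuvB complexes, was found in 72.1% of the 43 windows of the mitosis list, in 22.9% of those of the genes at least 2-fold lower and in 13.4% of those at least 2-fold higher, against 15.4% of all measured genes. The 4 carriers with the widest gaps are shown, with the match in capitals, reversed in Top2a, and its first base 15, 98, 23 and 101 bases before the start:
Cdk1, chr10:69352913-69352941, minus strand: tttaccgcggcgagTTTGAAactgctggc
Mki67, chr7:135716458-135716491, minus strand: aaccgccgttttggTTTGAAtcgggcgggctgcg
Top2a, chr11:99024193-99024226, minus strand: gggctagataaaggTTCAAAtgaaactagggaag
Ckap2, chr8:22185901-22185934, minus strand: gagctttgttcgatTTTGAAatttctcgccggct

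Further groups were split or moderate. Immediate early genes had 17 of 41 members higher and 7 lower (median 0.09). Jun was higher (10.93 and 10.95 against 7.35, 7.80 and 7.79), with Klf6 at 1.68 and Dusp1, a MAP kinase phosphatase, at 1.89, whereas Fos, Fosb and Egr2 overlapped and Nr4a1 differed by -0.67. Of 23 p53 targets 12 were higher and 8 lower (median 0.16). The high ones included Gadd45a (4.59) and Bbc3 (1.29), which ATF4 and CHOP also induce, and which factor raised them was not tested. The low ones included Sesn1 (-0.40) and Phlda3 (-0.18). Of 29 NF-kB targets and cytokines 14 were higher and 1 lower (median 0.10). The chemokine Cxcl10 had 10.85 and 10.96 against 7.48, 7.73 and 7.92, and Relb, an NF-kB subunit, differed by 1.87, while Il6, Tnf, Icam1 and Nfkbia overlapped and the adhesion receptor Cd44 was lower (-0.38).

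Degradation genes were mostly higher by small amounts, with 24 of 41 lysosome and autophagy genes higher and 4 lower (median 0.21) and 19 of 31 proteasome subunits higher and 1 lower (median 0.21). Gabarapl1, an autophagosome protein, had 9.95 and 9.75 against 7.77, 7.71 and 7.93, and the autophagy receptor Sqstm1 differed by 1.26. Those lower were Gusb (-0.68), Atg5 (-0.44), Gpnmb (-0.15) and Ctsb (-0.12) of the lysosome and autophagy list and the proteasome subunit Psmd6 (-0.20). Of 28 sterol and fatty acid synthesis genes 14 were higher and 6 lower (median 0.18), in opposite directions within the pathway, with the desaturase Scd1 at 0.84 and the fatty acid synthase Fasn at -0.77. Vegfa, a growth factor induced by ATF4 and by hypoxia, differed by 1.71. Glycolysis and hypoxia genes as a list had 12 of 34 higher and 10 lower (median -0.02). The members at the top of that list, Ddit4 (3.75) and Ero1a (1.71), are also ATF4 or CHOP targets. Which factor raised these genes was not tested.

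More genes of the melanocyte lineage were lower than higher in arrays 1 and 3. Mitf, the master transcription factor of melanocytes, had 9.87 and 9.93 against 11.74, 11.62 and 11.68, the widest gap of any gene lower in arrays 1 and 3. Of 27 melanocyte and melanosome genes 16 were lower (59.3%) and 4 higher (14.8%), with a median of -0.17. Over all genes 20.9% were lower and 19.5% higher, so the higher members did not exceed that share. Slc45a2, a melanosome transporter, differed by -1.15, Mlph and Myo5a, which carry melanosomes, by -1.05 and -1.02, and the receptors Met and Mc1r by -1.49 and -0.91, while Tyrp1 and Dct overlapped. The higher members were Ptgds (0.94), S100a1 (0.88), S100b (0.41) and Cited1 (0.19). The other wide gaps in this direction included Mknk2, the eIF4E kinase (-1.85), Ccn2, a matrix protein under YAP and SRF (-1.91), Deptor, an mTOR-binding protein (-1.70), and the differentiation inhibitor Id2 (-1.45). Of 28 actin genes of SRF and MRTF 12 were lower (42.9%) and 3 higher (10.7%, also below the share of all genes), with a median of -0.11. Vcl, vinculin, was at -1.33. The higher members were the matrix protein Ccn1 at 1.40, Zyx, zyxin, at 0.95 and Pdlim7 at 0.79.

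Splicing factors had 17 of 37 members lower and 6 higher (median -0.21), with the splicing kinases Clk1 and Clk4 among the higher ones, at 0.88 and 1.22. Ribosome biogenesis had 18 of 48 lower and 7 higher (median -0.10), oxidative phosphorylation 15 of 41 lower and 4 higher (median -0.11), and ribosomal proteins 5 of 33 lower and 6 higher (median -0.02). Over all genes 19.5% were higher and 20.9% lower. Ribosomal proteins (18.2% higher and 15.2% lower) and metallothioneins (16.7% and 0.0%) did not exceed these shares in either direction. The higher members of oxidative phosphorylation (9.8%), ribosome biogenesis (14.6%), splicing factors (16.2%) and glucose-sensing genes (14.3%) did not exceed them either. The same holds for the lower interferon and antigen presentation genes (17.2%). Members named from these groups are values only. HSF1 targets, the cytosolic chaperones of the heat shock response, had 6 of 20 higher and 7 lower (median -0.10). Hspa1b, the inducible HSP70 gene, had 6.47 and 6.45 against 6.97, 6.83 and 6.65, all below the median signal of 7.08 over all probesets, and only this one of its 3 probesets separated the sets. Pro-apoptotic genes and caspases (7 of 23 higher, 6 lower, median 0.03), interferon and antigen presentation genes (10 of 29 higher, 5 lower, median 0.03), metallothioneins (1 of 6 higher, 0 lower, median 0.12) and glucose-sensing genes (1 of 7 higher, 2 lower, median -0.04) had medians near that of all genes. Txnip of the latter list was higher by 1.40 and Bbc3 of the first by 1.29. The higher members of oxidative phosphorylation were Uqcrq (0.44), Ndufa1 (0.28), Cox5b (0.16) and Cox6a1 (0.10), and the lower ribosomal proteins were Rpl11 (-0.29), Rpl12 (-0.28), Rpl7a (-0.14), Rpl27 (-0.09) and Rpl6 (-0.08). Mt2 was the higher metallothionein (0.56), Arrdc4 (-0.25) and Pklr (-0.26) were the lower glucose-sensing genes, and Ifit2, Psmb10, Trim21, Psmb8 and Irf1 were the lower interferon genes, at -0.36 to -0.21.

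**Figure D3:**
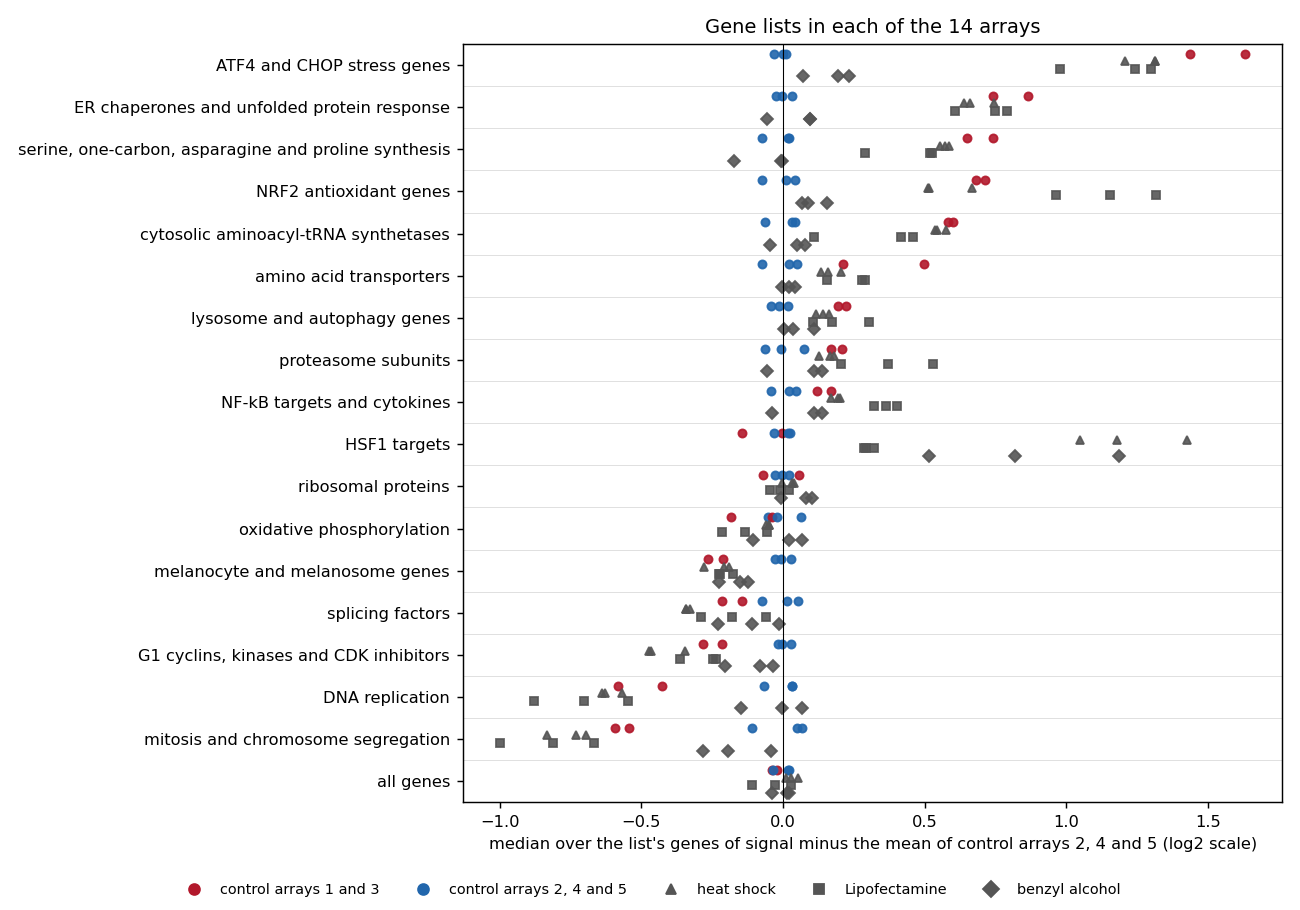
Median over the genes of each list of the signal minus the mean of control arrays 2, 4 and 5 (log2 scale), 1 point an array, with control arrays in colour and treated arrays in grey. Red and blue points are apart for the stress lists at the top and the division lists at the bottom and close together for HSF1 targets and ribosomal proteins. The scale is set by the blue arrays, so these lie near 0 by construction.

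The name of the division, a stressed and a proliferative state, is set beside these lists as a description. The division was chosen by these signals and the lists with earlier results known, so the lists are no independent check of the name. RNA of ATF4, ER and NRF2 genes was high and RNA of mitosis and replication genes low in arrays 1 and 3, but HSF1 targets were not high and no cell counts or proteins were measured. In RNA from whole cultures, fewer dividing cells and less of each RNA per cell cannot be told apart. All arrays carried melanocyte RNA at high signal, with Dct at 13.18 and 13.24, Pmel at 13.10 and 13.28 and Sox10 at 11.10 and 11.86 in the means of the first and second set. Of the markers of other cell types, 2 of 8 fibroblast markers (Col1a2 and Pdgfrb) and 1 of 6 macrophage markers (Adgre1) were higher. Among the others, 1 of 6 epithelial markers (Epcam) was lower and 0 of 3 lymphocyte markers separated the sets. Over all genes 19.5% were higher and 20.9% lower, and the gaps of Col1a2, Pdgfrb and Adgre1 were 0.078, 0.007 and 0.025. The summed linear signal of fibroblast markers was 596 to 613 in arrays 1 and 3 and 530 to 608 in the others, and that of macrophage markers 612 to 680 and 587 to 703, against 29755 to 32585 and 36840 to 38210 for the melanocyte lineage. The mean signal of Cdh1 was 3.46 in both sets, in the dimmest 5% of signals, which end at 3.9. The part of other cell types in the division was not tested.

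Controls built into the arrays differed between the sets. Bacterial RNAs that are added to the labelled sample before hybridization have no relation to the cells, yet 15 of their 18 probesets were higher in arrays 1 and 3 and 0 lower. The means of the BioB probesets, the least abundant of them, were 6.72 and 6.81 against 5.85, 5.90 and 5.97, and those of BioC were 8.13 and 8.23 against 7.33, 7.45 and 7.66. Cre, the most abundant, overlapped (11.87 and 11.81 against 11.47, 11.53 and 11.81). The heat shock arrays had BioB at 6.40 to 6.91, the Lipofectamine arrays at 6.25 to 6.78 and the benzyl alcohol arrays at 5.80 to 6.20. Controls that pass through the labelling reaction, the poly-A RNAs, were higher in arrays 1 and 3 at 1 of 27 probesets and lower at 0. Their mean, however, was 11.923 in array 1 and 11.475 in array 3, against 11.316, 11.689 and 11.694 in arrays 2, 4 and 5. It was 11.504 to 11.678 in the heat shock arrays, 11.92 to 12.053 in the Lipofectamine arrays and 11.337 to 11.659 in the benzyl alcohol arrays. The difference of signal between the 3' and 5' ends overlapped between the sets for Actb, Gapdh and Tfrc. The hybridization controls thus moved with the division, by 0.86 log2 units for BioB, and their part in the gene differences was not tested.

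**Figure D4:**
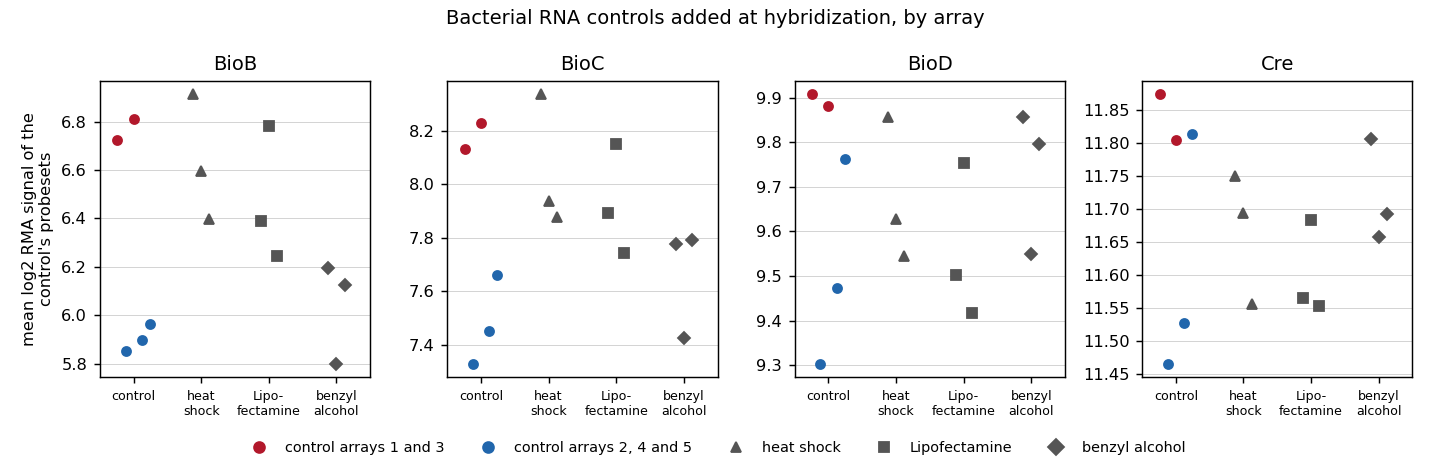
Mean log2 RMA signal of the probesets of 4 bacterial hybridization controls in each of the 14 arrays, colours as for the genes, with a y axis of its own in each panel that does not start at 0. BioB, BioC and BioD separate the red from the blue control arrays, and Cre does not.

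Arrays 1 and 3 were not alike in every gene. At 72 probesets array 1 was at least 2-fold above array 3, and at 3 it was below. The largest differences were in 1 probeset of Scd2, a desaturase (10.24 in array 1 and 8.15 in array 3), Ywhag, a 14-3-3 protein (8.98 and 7.11), and Hdlbp, an RNA-binding protein (8.49 and 6.96). For this Scd2 probeset arrays 2, 4 and 5 had 9.53, 10.05 and 10.14, the Lipofectamine arrays 10.32 to 10.69 and the heat shock arrays 7.79 to 8.56. The 3' minus 5' difference of the poly-A controls was 0.22 in array 1, 0.77 in array 3, 0.43 to 0.79 in arrays 2, 4 and 5, 0.17 to 0.22 in the Lipofectamine arrays and 0.52 to 0.83 in the heat shock arrays. The benzyl alcohol arrays had 7.95 to 8.79 for Scd2 and 0.54 to 0.72 for the poly-A controls. Array 1 was thus below the Lipofectamine arrays and above the other control arrays in Scd2, and array 3 lay within the range of both heat shock and benzyl alcohol arrays there. The part of labelling in these genes was not tested.

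The treated arrays, which did not enter the division, were then placed on the same scale. By the number of probesets at least 2-fold apart, each of the 3 heat shock arrays was nearest to control array 3 (108 to 129 probesets), each of the 3 Lipofectamine arrays was nearest to control array 1 (114 to 175), and of the benzyl alcohol arrays number 1 was nearest to control array 4 (151), number 2 to control array 2 (63) and number 3 to control arrays 2 and 4 alike (247). From control arrays 1 and 3 the benzyl alcohol arrays differed at 581 to 757 probesets. Over the 315 probesets at least 2-fold higher in control arrays 1 and 3, with 0 for the mean of arrays 2, 4 and 5 and 1 for the mean of arrays 1 and 3, the median place was 0.71 to 0.78 in the heat shock arrays, 0.64 to 0.86 in the Lipofectamine arrays and 0.06 to 0.21 in the benzyl alcohol arrays. Over the 125 lower probesets it was 1.08 to 1.12, 0.76 to 0.97 and -0.002 to 0.35. Heat shock and Lipofectamine arrays thus lay on the side of arrays 1 and 3, and benzyl alcohol arrays on the side of arrays 2, 4 and 5.

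**Figure D5:**
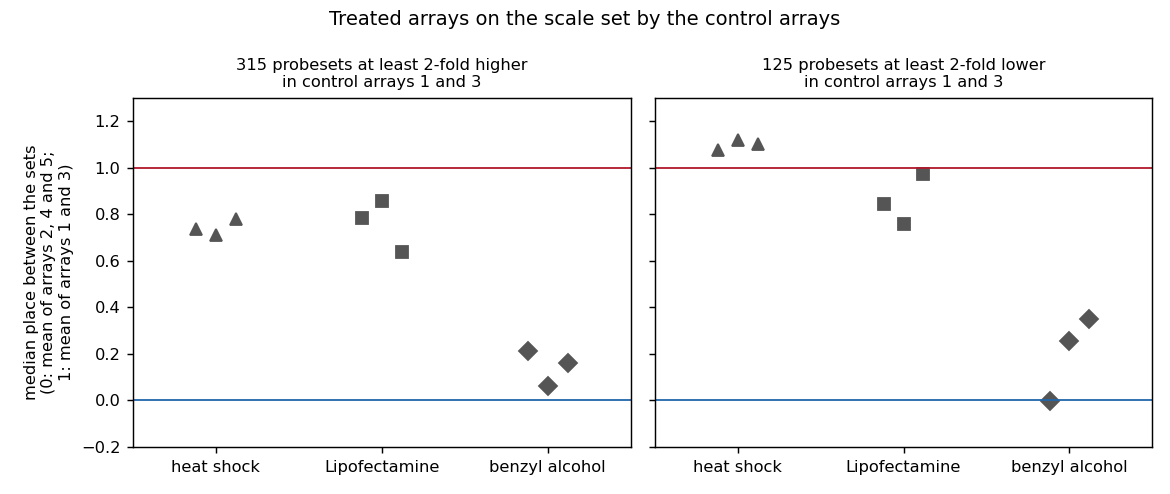
Median place of each treated array between the sets of control arrays, over the 315 probesets at least 2-fold higher (left) and the 125 at least 2-fold lower (right) in control arrays 1 and 3. The red line at 1 is the mean of control arrays 1 and 3 and the blue line at 0 that of arrays 2, 4 and 5. Benzyl alcohol arrays lie at 0.35 or below in both panels, the others at 0.64 or above.

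Because no control array enters them, direct comparisons among the 9 treated arrays could test whether the same genes differ there. These comparisons were chosen after the values had been seen, and both of those with benzyl alcohol share its 3 arrays. In a limma fit of the 9 arrays, 2092 probesets were higher (9.25%) and 1072 lower (4.74%) after benzyl alcohol than after heat shock at an adjusted p under 0.05, and 2102 were higher (9.29%) and 1890 lower (8.35%) than after Lipofectamine. Of the 315 probesets higher in control arrays 1 and 3, 235 were lower after benzyl alcohol than after heat shock and 0 higher (median -0.79), and 232 were lower than after Lipofectamine and 3 higher (median -0.85). Of the 125 lower probesets 119 were higher after benzyl alcohol than after heat shock and 0 lower (median 1.04), and 92 were higher than after Lipofectamine and 5 lower (median 0.82). The BioB hybridization controls were also lower in the benzyl alcohol arrays (5.80 to 6.20) than in the heat shock (6.40 to 6.91) and Lipofectamine arrays (6.25 to 6.78). BioC overlapped between benzyl alcohol and Lipofectamine, and BioD and Cre overlapped among all 3 groups. In these arrays the treatment, the state of the cultures and differences of labelling or hybridization cannot be told apart.

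The ATF4 and CHOP, ER, mitosis and replication lists behaved in the same manner in that fit. Over all probesets, 4.74% were lower and 9.25% higher after benzyl alcohol than after heat shock, and 8.35% and 9.29% than after Lipofectamine. Of 30 ATF4 and CHOP genes 21 were lower after benzyl alcohol than after heat shock and 21 than after Lipofectamine, with 0 higher in either. Of 40 ER genes 28 and 27 were lower and 0 higher. Of 52 mitosis genes 37 and 38, and of 44 replication genes 32 and 37, were higher and 0 lower. Nupr1 was lower after benzyl alcohol than after heat shock by 4.26 ± 0.15 (log2 difference -4.26, SE, n = 3 and 3, limma adjusted p = 2.09e-09) and lower than after Lipofectamine by 3.67 (difference -3.67, limma adjusted p = 8.36e-09). Mitf was higher by 1.76 ± 0.21 (SE) than after heat shock and by 1.72 ± 0.21 than after Lipofectamine, with limma adjusted p of 9.33e-05 and 7.2e-05. Cdk2 was higher by 1.42 ± 0.13 and 1.38 ± 0.13 (SE), with limma adjusted p of 9.17e-06 and 8.26e-06.

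Heat shock and Lipofectamine arrays were not alike in all genes of the division. Ddit3 was at 11.69 to 11.88 after heat shock, close to control arrays 1 and 3, at 9.18 to 9.56 after Lipofectamine and at 8.26 to 8.64 after benzyl alcohol, and Lipofectamine and heat shock differed by -2.36 ± 0.13 (SE, limma adjusted p = 3.37e-07). Atf3 likewise was at 11.27 to 12.04 after heat shock and at 8.43 to 8.70 after Lipofectamine. NRF2 targets took the reverse order, with 14 of 30 higher after Lipofectamine than after heat shock and 0 lower in the 9 arrays (median 0.40), where 7.04% of all probesets were higher and 2.58% lower. Srxn1 was at 12.02 to 12.27 after Lipofectamine, above every control array. Hspa1b rose against the control arrays in every treated group, by 5.17 ± 0.13 after heat shock, 1.94 ± 0.13 after Lipofectamine and 4.0 ± 0.30 after benzyl alcohol (SE, limma adjusted p of 3.31e-11, 4.64e-06 and 2.99e-06).

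The treated groups were also compared with all 5 control arrays together. In the limma fits 237 probesets were higher (1.05%) and 1112 lower (4.91%) after heat shock, 402 higher (1.78%) and 702 lower (3.1%) after Lipofectamine, and 156 higher (0.689%) and 158 lower (0.698%) after benzyl alcohol. Of the 315 probesets higher in control arrays 1 and 3, 7 were higher after heat shock (2.22%), 20 after Lipofectamine (6.35%) and 0 after benzyl alcohol, where 1 was lower. Of the 125 lower ones 36 were lower after heat shock (28.8%), 3 after Lipofectamine (2.4%) and 0 after benzyl alcohol, where 2 were higher. Nupr1 differed from the control mean by 2.59 ± 1.12 after heat shock and 2.0 ± 1.12 after Lipofectamine (SE), with limma adjusted p of 0.188 and 0.383, since the standard error holds the spread between the sets of control arrays. These counts rest on the control arrays that gave the division and are a description.

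The replicate number itself was tested in the treated arrays, which carry the labels 1, 2 and 3. With the treatment in the model, 0 of 22626 probesets (0.0%) differed between numbers 1 and 3 and number 2 at a limma adjusted p under 0.05, with 116 at an unadjusted p under 0.05. Leaving out 1 array at a time kept the former count at 0 and moved the latter from 63 (without benzyl alcohol 3) to 1166 (without Lipofectamine 2), with 708 without benzyl alcohol 2 and 418 without benzyl alcohol 1. The median difference was 0.02 for the ATF4 and CHOP genes, 0.03 for the ER genes and -0.02 for mitosis genes. The count of 116 lies below the share of 0.05 of the probesets that is expected without any difference. Lipofectamine 2 and benzyl alcohol 2 deviated from their group means in opposite directions (Pearson's r = -0.56), which widens the spread in the fit. The fit could therefore miss a difference by number, and whether the division of the control arrays recurs in treated arrays of the same numbers is not decided.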

How the data were processed

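The deposited values are log2 signals that the authors made by RMA, and the submitters' processing notes also name GCOS 1.2. The version of RMA and which arrays were normalized together are not given in the sources used here. RMA makes array medians alike (7.03 to 7.12), and precision is limited by the number of arrays. The 64 Affymetrix control probesets were set aside. Of the other 22626, 20380 carry 1 gene symbol, 691 several and 1555 none, and symbols are those of the platform annotation. A gene in a list is read from its brightest probeset over all 14 arrays, and a named gene from the probeset with the widest gap between the sets.

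Sets of control arrays were compared by set means, overlap and the gap between their nearest arrays, without a test. Named are the 15 genes with the widest gaps in each direction, up to 4 of each list, 8 genes given in any case (Atf4, Ddit3, Hspa5, Nfe2l2, Mki67, Cdkn1a, Mitf and Hspa1b), and further list members singled out after their values were seen. The members and lists were chosen with earlier results of these data known. The lists were written by hand. Treated groups were fitted with limma 3.58.1 in R 4.3.3, two-sided, with Benjamini-Hochberg adjustment over all probesets and a threshold of 0.05: heat shock and Lipofectamine in 11 arrays with the controls, benzyl alcohol in all 14, and replicate numbers in the 9 treated arrays with treatment as a term. Treated groups were also compared with each other in the 9 treated arrays, a comparison added after seeing the data. The fits were first tested on simulated signals. Alternatives were renewed quantile normalization, equal medians, the dimmer 50% of probesets or cross-hybridizing probesets left out, means of a gene's probesets, other sets of arrays, a replicate block, a variance trend and single arrays left out. Promoter windows are those of RefSeq for GRCm38.p6.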

Additional observations from a re-analysis of the deposited data

Results flagged for a closer look

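Among 175 values looked at over the 5 control arrays, 1 stood apart from its neighbours. The median of the interferon and antigen presentation genes had a sample whose gap to the nearest other made up 0.773 of the range of the 5 arrays. Chance gives about 1 such case in 20 groups. Many of the 175 values are of genes named for a wide gap between the sets, where a single array can hardly stand apart. The low count therefore says little about the quality of the arrays.

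Of 24 differences of 8 key genes between treated groups, 16 were called in the limma fit of the 9 treated arrays, with Benjamini-Hochberg adjustment over all probesets. Ddit3 was -2.36 in Lipofectamine minus heat shock, -3.32 in benzyl alcohol minus heat shock and -0.96 in benzyl alcohol minus Lipofectamine (log2 differences throughout). Benzyl alcohol minus heat shock and benzyl alcohol minus Lipofectamine were 1.76 and 1.72 for Mitf, -1.19 and -1.11 for Atf4, -0.77 and -0.83 for Hspa5, and 0.96 and 1.02 for Mki67. Nfe2l2 was 0.95 in Lipofectamine minus heat shock and -0.64 in benzyl alcohol minus Lipofectamine. Hspa1b was -3.23 in Lipofectamine minus heat shock, -1.17 in benzyl alcohol minus heat shock and 2.06 in benzyl alcohol minus Lipofectamine.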

How the results depend on the processing

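With the dimmer 50% of probesets left out, 2714 probesets were lower without overlap, and the ATF4 and CHOP median was 1.71. That median was 1.61 without cross-hybridizing probesets and 1.3 with the mean of a gene's probesets, which also gave 0.61 for ER and 0.60 for NRF2 genes. Leaving out 1 control array at a time gave 4699 (without array 5) to 6362 (without array 1) probesets higher and 5545 to 8453 lower, since fewer arrays overlap less often. Medians then ran from 1.44 to 1.63 for ATF4 and CHOP, 0.56 to 0.67 for tRNA synthetases, 0.74 to 0.86 for ER and -0.58 to -0.43 for replication genes. Glucose-sensing genes changed sign, with medians of -0.069 to 0.061 without 1 array (0.015 without array 5) and 0.10 without the dimmer 50%, as did Rps20 at 0.033 with the mean of probesets. The causes were not tested.

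Calls against control depended on the control arrays used. Without control arrays 1 and 3 they were 4930 for heat shock, 4248 for Lipofectamine and 686 for benzyl alcohol, and without arrays 2, 4 and 5 they were 841 for heat shock and 2826 for benzyl alcohol. Ddit3 after Lipofectamine turned to 1.15 in the former, and Atf4 to -0.54 after heat shock and -0.62 after Lipofectamine in the latter. The fit of 2 groups gave 81 for benzyl alcohol. Leaving out 1 array gave 259 (without heat shock 2) to 2658 (without control 3) for heat shock, 255 (without Lipofectamine 1) to 2262 (without control 1) for Lipofectamine and 131 (without benzyl alcohol 3) to 441 for benzyl alcohol. Among treated groups it gave 2090 (without heat shock 2 or 3) to 3625 for benzyl alcohol against heat shock, 2549 (without Lipofectamine 1) to 3924 against Lipofectamine, and 1050 (without Lipofectamine 1) to 2926 for Lipofectamine against heat shock. All 14 arrays in 1 fit gave 1633 for benzyl alcohol and 1293 for Lipofectamine against heat shock.

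With the replicate block, calls were 192 for heat shock, 186 for Lipofectamine and 286 for benzyl alcohol against control, 2701 and 3384 for benzyl alcohol against heat shock and Lipofectamine, and 1745 for Lipofectamine against heat shock. Deviations of same-numbered treated arrays correlated at -0.56 to 0.073 (0 of 9 pairs over 0.1) and those of same-numbered control and treated arrays at -0.385 to 0.312 (3 of 9 over 0.1), so the numbers were not taken to pair the arrays.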
